A study of Mus musculus with 18 samples.

Results

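The step from 10 to 60 µg/ml oxidized low-density lipoprotein (oxLDL) was examined in Apoe-/- bone marrow-derived macrophages (BMDM), as 3 libraries from cells given the high dose (oxLDL 60) against 3 from cells given the low dose (oxLDL 10). The libraries were made from total RNA, with poly(A) selection by the study's methods. The members were all genes with a level of at least 0.1 RPKM (reads per kilobase of gene, scaled to the size of the library) in at least 3 of the 18 libraries of the series, which held for 12838 of the 18668 rows in the expression table. The marrow came from C57BL6 mice without a functional Apoe gene, was grown in M-CSF, differentiated for 7 days and then exposed for 16 h to oxLDL or, in 3 untreated libraries, to the PBS vehicle. The other 9 libraries were Apoe-/-/Treml4-/- (DKO) macrophages, which lack Apoe as well as Treml4, under the same 3 treatments with 3 biological replicates each. Every group therefore carried the Apoe deletion, no macrophages with intact Apoe were compared, and the age of the animals is not given in the sources used here.

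Macrophages take up oxLDL through scavenger receptors such as Cd36, store its cholesterol as esters in lipid droplets and become foam cells. Oxidized lipids are also electrophiles, which release the transcription factor NRF2 to switch on antioxidant genes, while cholesterol and its oxidized derivatives act on the nuclear receptors LXR and, for fatty acids, PPAR. Macrophages respond to interferon and Toll-like receptor ligands with a separate inflammatory program of chemokines, cytokines and antiviral genes, which lipid loading is known to modify.

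The 6 libraries held an estimated 42.5 to 54.2 M reads each, so that 3 reads over 1 kb of transcript corresponded to 0.0554 to 0.0705 RPKM, a floor that covers counting error only. Residual Apoe reads gave 0.937 to 4.13 RPKM across the 9 Apoe-/- libraries, and Treml4 lay between 1.86 and 8.39 RPKM there against at most 0.0116 RPKM in the 9 DKO libraries. All 12 macrophage markers were tested and 1 of them, Cd14, was called between the doses. The summed level of the 12, mostly lysozyme (Lyz2), was 8914 to 12360 RPKM at oxLDL 10 and 6845 to 8860 RPKM at oxLDL 60. Markers of T, B and NK cells, dendritic cells, mast cells and erythroid cells summed to at most 2.20 RPKM per lineage, while the neutrophil list, carried by S100a8 and S100a9 with Ly6g at 0.0197 RPKM or less, summed to 35.9 to 48.6 RPKM at oxLDL 10 and 30.1 to 43.0 RPKM at oxLDL 60 with no member called. Stromal markers summed to 0.629 to 14.2 RPKM and 0.550 to 13.1 RPKM at the low and high dose, again without a call. Endothelial markers summed to 2.67 to 3.87 RPKM and 3.56 to 3.93 RPKM, also without a call. Osteoclast markers summed to 5.57 to 10.7 RPKM and 6.18 to 10.2 RPKM, and 1 of the 4 tested, Ctsk, was called higher (0.87). That call was lost without oxLDL 10 replicate 3 or oxLDL 60 replicate 2. In bulk RNA, fewer cells of a type and less RNA per cell cannot be told apart. Replicate 2 of each Apoe-/- group expressed Xist, the RNA that coats the inactive X chromosome, and replicates 1 and 3 expressed the Y-linked Ddx3y instead, and these animals stood apart on the second principal component of the 9 Apoe-/- libraries. Some replicates with the same number deviated together, as set out with the processing.

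**Figure D1:**
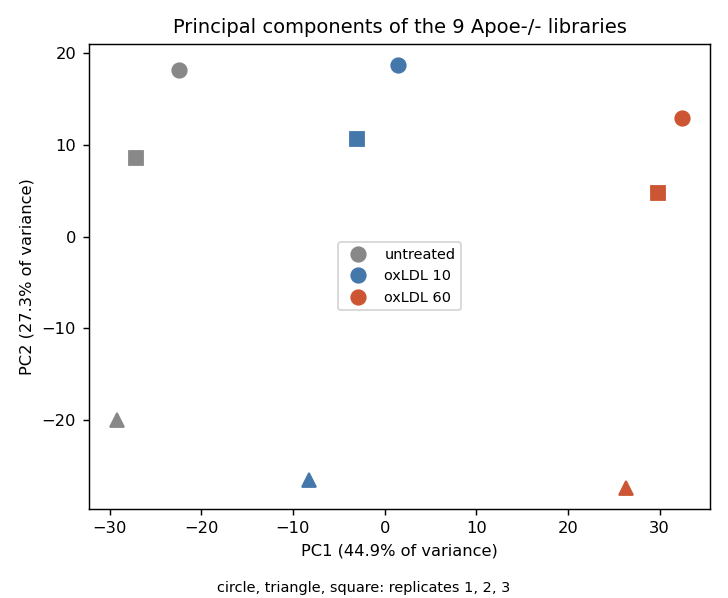
First and second principal components of the 9 Apoe-/- libraries on log2(RPKM + 0.1) over the 12838 genes tested, with colour for the oxLDL dose and marker shape for the replicate number. The first component (44.9% of the variance) places the untreated libraries between -29.2 and -22.5, the oxLDL 10 libraries between -8.24 and 1.46 and the oxLDL 60 libraries between 26.3 and 32.5, and the second (27.3%) places replicate 2 below replicates 1 and 3 at every dose.

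At 60 against 10 µg/ml oxLDL, the genes that rose included most antioxidant genes tested and many of the amino acid stress response, and those that fell included nearly all interferon-stimulated genes tested and many chemoattractant receptors. A gene was called when limma gave a Benjamini-Hochberg adjusted p under 0.05 over all genes tested and a fold change of at least 1.4 on the log2(RPKM + 0.1) scale. On that rule 374 genes (2.91% of those tested) were higher at oxLDL 60 and 455 genes (3.54%) were lower. The levels of oxLDL 10 and oxLDL 60 libraries did not overlap for 371 of the 374 and 451 of the 455, as they also did not for 15.03% of all genes tested in the higher and 15.45% in the lower direction. The larger changes were decreases: 81 genes rose and 142 fell by at least 2-fold, and 3 rose and 16 fell by at least 4-fold. The median change over all genes tested was -0.01 on the log2 scale. Genes called higher made up 2.76% of the summed RPKM at oxLDL 10 and 5.03% at oxLDL 60, and genes called lower 2.48% and 1.43%. Near the fold limit, 93 of the higher and 85 of the lower calls were under 1.5-fold, and 902 further genes passed the adjusted p but changed by less than 1.4-fold. With the replicate number as a block, 468 genes were called higher and 547 lower, among them all 374 and 455 of the fit without it. When each of the 6 libraries was left out in turn, 545 of the 829 calls (65.7%) held in every fit, 235 of them higher and 310 lower.

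**Figure D2:**
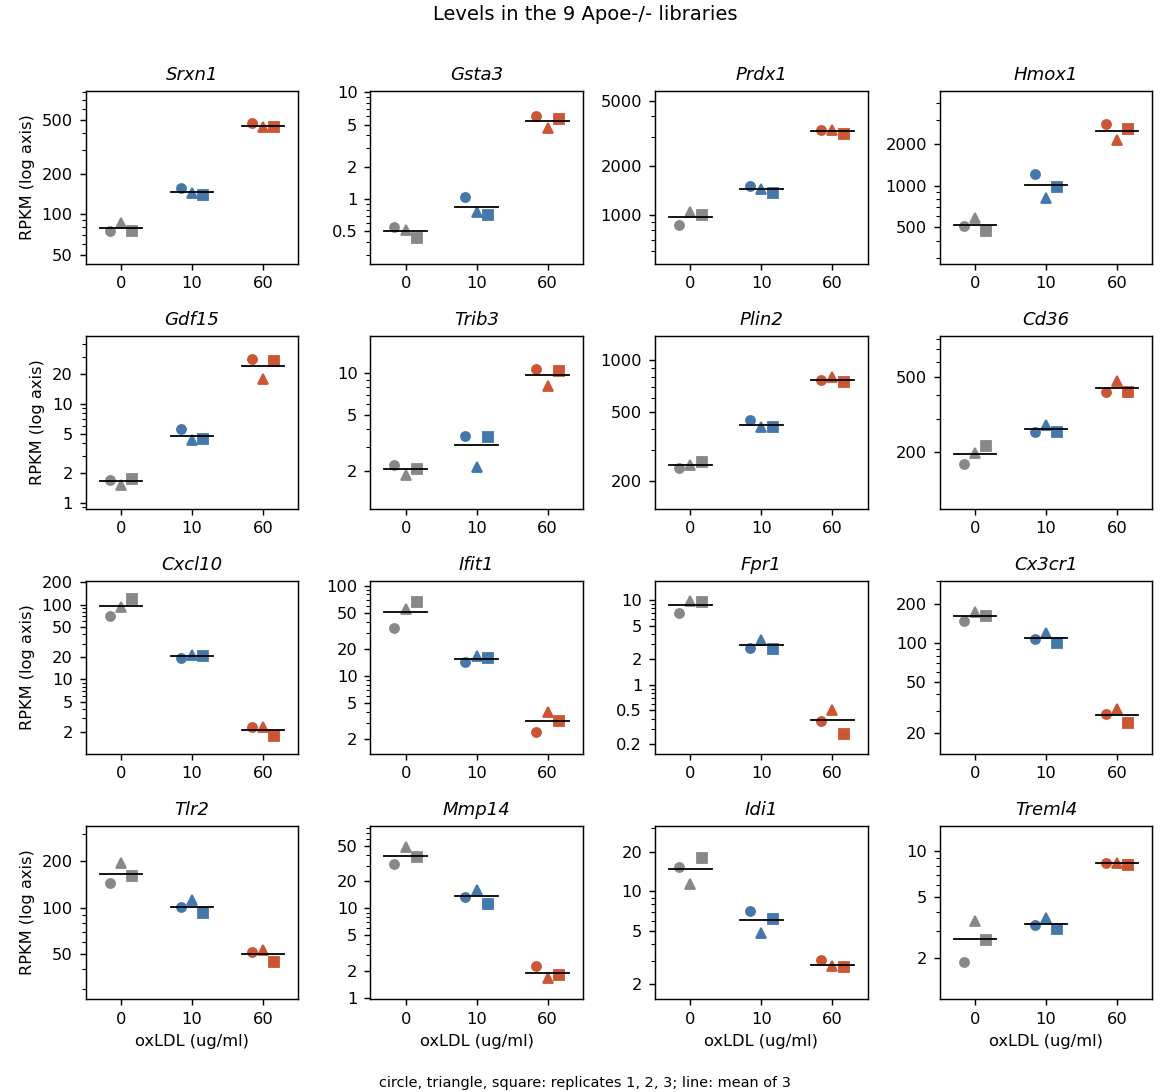
Levels of 16 genes in the 9 Apoe-/- libraries, in RPKM on a log axis, against the oxLDL dose in µg/ml (0 is the PBS vehicle); each point is a library, its shape the replicate number, and the line the mean of 3. At 60 µg/ml Srxn1 lies at 439.7 to 473 RPKM and Cxcl10 at 1.74 to 2.30 RPKM, and in each of the 16 panels the oxLDL 10 and oxLDL 60 points do not overlap.

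Antioxidant genes had the highest share of increases among the gene lists examined. Of 25 targets of NRF2 and enzymes of glutathione metabolism tested, 18 rose and 0 fell, against 2.91% higher and 3.54% lower among all genes, and all 25 had a positive log2 fold change, with a median of 0.84 beside -0.01 for all genes. The list covers enzymes that make glutathione, enzymes that use it or thioredoxin to detoxify peroxides and electrophiles, and enzymes that supply NADPH. It does not hold whole families. Of 18 glutathione S-transferase genes, grouped by symbol after their values were seen, 4 rose and 1 fell, with a median of 0.22. The 1 that fell was Gstt1, from a mean of 1.05 to 0.476 RPKM (-1.02, adjusted p = 0.00199 by limma). Gsta3, a glutathione S-transferase, was at 1.05, 0.766 and 0.715 RPKM in the oxLDL 10 replicates and at 5.99, 4.67 and 5.67 RPKM in the oxLDL 60 replicates. Its lowest oxLDL 60 library was well above its highest oxLDL 10 library, and the step was 2.56 ± 0.32 on the log2 scale (SE; adjusted p = 3.22e-05). Srxn1, which encodes sulfiredoxin and repairs overoxidized peroxiredoxins, rose from 156, 143 and 138 RPKM to 473, 439.7 and 445 RPKM, that is by 1.64 ± 0.11 on the log2 scale (SE; adjusted p = 6.85e-08). Both doses were tight around their means for Srxn1 and did not overlap.

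The most abundant antioxidant transcripts moved with the list. Prdx1, the peroxiredoxin that reduces hydrogen peroxide, was at 1492, 1440.4 and 1362 RPKM at oxLDL 10 and 3325, 3283 and 3107 RPKM at oxLDL 60. Hmox1, heme oxygenase 1, was at 1215, 821 and 978 RPKM and then at 2821, 2133 and 2557 RPKM. For both genes every high-dose library exceeded every low-dose library, with log2 fold changes of 1.18 ± 0.10 and 1.33 ± 0.15 (SE; adjusted p = 1.3e-06 and 1.24e-05). Slc7a11, the cystine importer that feeds glutathione synthesis, was at 4.07, 6.93 and 3.61 RPKM in untreated cells, 4.67, 4.63 and 3.87 RPKM at oxLDL 10 and 15.3, 15.5 and 14.4 RPKM at oxLDL 60. The low dose overlapped with untreated cells and the high dose stood clear of both (1.76 ± 0.18 SE, adjusted p = 5.61e-06). Osgin1, an oxidative stress-induced growth inhibitor, rose by 1.38 (adjusted p = 0.000127). Called members outside the rule for naming, chosen after their values were seen, included the glutathione-synthesizing subunits Gclc (1.34) and Gclm (1.00), glutathione reductase Gsr (1.07), and the quinone reductase Nqo1 (1.30), all as log2 fold changes with adjusted p values of 1.14e-06 or less. Taldo1, an enzyme of the pentose phosphate pathway, rose by 0.78 (adjusted p = 1.76e-06). The ferritin chains Ftl1 and Fth1, by far the most abundant members, were not called: Ftl1 had means of 12053 ± 1271 and 15168 ± 987 RPKM (SD, n = 3 each; adjusted p = 0.0855) and Fth1 3669 ± 183 and 4320.1 ± 311 RPKM (adjusted p = 0.157).

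Promoter sequence was at hand for 14 of the 18 called members and for 10203 of the 12838 genes tested, from RefSeq on build GRCm38.p6, as 300 bases from 250 upstream to 50 downstream of each transcription start. The core of the antioxidant response element, TGACNNNGC, was searched on both strands. At least 1 copy lay in 35.0% of the promoters of called NRF2 targets (7 of 20 promoters, since some genes have several), 21.0% of those of all genes called higher, 13.3% of those of genes called lower and 14.4% of all 12876 promoters. Other lists held it too: 26.7% for called integrated stress response genes (4 of 15 promoters) and 22.7% for interferon-stimulated genes called lower (5 of 22). For chemoattractant receptors called lower it was 16.7% (1 of 6). Since fewer than 80% of the genes had a promoter in the table, these shares describe the promoters at hand, and a check of the called genes as a whole is void. The stretches shown are those of the 2 named members with the largest increases that hold it, Gsta3 on the plus strand at chr1:21240444-21240503 and Prdx1 on the plus strand at chr4:116685446-116685505, both upstream of the start, with the element in capitals:
Gsta3: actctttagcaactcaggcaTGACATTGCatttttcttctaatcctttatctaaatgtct
Prdx1: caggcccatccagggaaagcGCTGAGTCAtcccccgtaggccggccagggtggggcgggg
In the Prdx1 promoter the element reads on the opposite strand, and its letters include those of an AP-1 site (TGAGTCA), so the motifs overlap there. The AP-1 letters were in 8.6% of promoters of genes called higher, 6.9% of those of genes called lower and 3.8% of all promoters. A match of letters is a description of the sequence and does not show that a factor bound it.

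Many genes of the integrated stress response rose. This pathway senses amino acid shortage and other stresses through the translation factor eIF2 and acts through the transcription factor Atf4. Of 27 members tested, 16 rose and 0 fell, against 2.91% and 3.54% of all genes, 11 were not called, and the median log2 fold change was 0.66. The count fell to 12 when oxLDL 60 replicate 1 was left out and was 17 without the Xist-positive animals. Gdf15, a secreted stress cytokine, was at 5.55, 4.26 and 4.40 RPKM at oxLDL 10 and 28.1, 18.0 and 27.0 RPKM at oxLDL 60, from 1.51 to 1.72 RPKM in untreated cells. Replicate 2 was the lowest of the 3 at the high dose and still lay above every low-dose library, with a step of 2.32 ± 0.44 (SE; adjusted p = 0.00158). Trib3, a pseudokinase induced by Atf4, rose from 3.55, 2.15 and 3.48 RPKM to 10.7, 8.06 and 10.4 RPKM (log2 fold change 1.66, adjusted p = 0.00107), and Chac1, which degrades glutathione, from 1.39, 0.785 and 1.09 RPKM to 3.67, 2.66 and 4.02 RPKM (1.59, adjusted p = 0.00179). In both genes the 2 doses did not overlap and replicate 2 was the lowest library of each dose. Atf4 itself, named after its values were seen, was at 103, 98.6 and 101 RPKM and then at 174, 173 and 179 RPKM (0.80 ± 0.08 SE, adjusted p = 3.85e-06).

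Other stress programs moved little. For comparison, 2.91% of all genes tested were called higher and 3.54% lower. Of 18 endoplasmic reticulum chaperones and unfolded protein response genes 1 was called, Herpud1, a component of endoplasmic reticulum-associated degradation, at 10.3, 11.5 and 11.2 RPKM against 16.4, 16.8 and 17.8 RPKM (0.63, adjusted p = 6.07e-05). The chaperone Hspa5 was at 233 to 236 RPKM and 252 to 259 RPKM, and its difference of 0.13 ± 0.06 (SE) did not pass the test (adjusted p = 0.217). Of 17 cytosolic heat shock genes 1 rose, Dnajb4 (0.62), and the median of the list was 0.03. By limma 0 of 31 proteasome subunits were called, with or without the replicate block, and 9 had an unadjusted p under 0.05; their median was 0.10 and their range -0.15 to 0.45, and 1 was called without oxLDL 10 replicate 1 or oxLDL 60 replicate 2. The metallothionein Mt1 was not called (0.08), while in the same list of 7 genes the zinc transporters Slc39a10 (0.81, adjusted p = 1.69e-06) and Slc30a1 (0.64, adjusted p = 0.00168) rose.

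Some genes of lipid storage and fatty acid handling rose, while most of those tested were not called. In the lipid droplet and lipolysis list 4 of 13 genes rose (30.8%, against 2.91% of all genes) and 0 fell, with a median of 0.39. In the list of PPAR targets and fatty acid oxidation 6 of 17 rose (35.3%) and 0 fell, with a median of 0.28. The latter count of 6 held in no fit without 1 library: it was 3 without oxLDL 60 replicate 2 and at most 5. In a list of fatty acid synthesis and desaturation 2 of 10 fell (20%, against 3.54% of all genes) and 0 rose. Plin2, the coat protein of lipid droplets, was at 448, 408 and 411 RPKM at oxLDL 10 and 766, 799 and 743 RPKM at oxLDL 60, against 238 to 256 RPKM in untreated cells. The 3 doses did not overlap, and the dose step was 0.87 ± 0.12 (SE; adjusted p = 9.18e-05). Hilpda, a lipid droplet protein that restrains lipolysis, rose from 6.87, 6.27 and 6.40 RPKM to 16.3, 17.4 and 14.8 RPKM (1.30, adjusted p = 9.06e-05). Cd36, the scavenger receptor and fatty acid translocase, was at 257, 279 and 258 RPKM and then at 419, 478 and 419 RPKM, a step of 0.73 ± 0.14 (SE; adjusted p = 0.00234). Replicate 2, the Xist-positive animal, was the highest for Cd36 at both doses. The fatty acid-binding protein Fabp4 (8.26 ± 1.22 and 18.9 ± 2.49 RPKM, SD, n = 3 each) and the nuclear receptor Ppard (1.32 ± 0.102 and 3.16 ± 0.398 RPKM) each rose by 1.19 (adjusted p = 0.00452 and 0.000137). Pparg itself, named after its values were seen, had means of 7.28 and 8.51 RPKM and was not called (0.22, adjusted p = 0.173). Hadha, an enzyme of mitochondrial fatty acid oxidation, moved by 0.03 and was not called.

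Of 15 iron handling genes 4 rose (26.7%, against 2.91% of all genes) and none fell. The 4 were Hmox1, described above, the iron exporter ferroportin (Slc40a1), the biliverdin reductase Blvrb and the phagosomal metal transporter Slc11a1. Slc40a1 was at 3.11, 3.15 and 3.28 RPKM at oxLDL 10 and 9.14, 8.39 and 9.96 RPKM at oxLDL 60. The step was 1.50 ± 0.15 on the log2 scale (SE; adjusted p = 5.01e-06), and no library of the high dose came near the low-dose range. Of 28 lysosome genes 3 rose (10.7%), among them the V-ATPase subunit Atp6v1a (0.50, adjusted p = 0.000388), and the median of that list was 0.20. The count was 2 without oxLDL 10 replicate 3 or oxLDL 60 replicate 2 and 4 without oxLDL 60 replicate 1. In DKO 0 of the 28 were called.

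Few sterol genes were called. Among 24 genes of cholesterol synthesis and uptake 2 fell (8.33%, against 3.54% of all genes) and the others were not called, with a median of -0.04. Idi1, an isomerase of the mevalonate pathway, was at 15.2, 11.3 and 18.0 RPKM in untreated cells, 7.12, 4.90 and 6.17 RPKM at oxLDL 10 and 3.02, 2.74 and 2.68 RPKM at oxLDL 60. Each dose lay below the previous one without overlap, and the dose step was -1.07 ± 0.15 (SE; adjusted p = 0.000128). Fdps, which makes farnesyl diphosphate, moved by -0.05 and was not called. From untreated cells to oxLDL 10 the median of the same 24 genes was -0.60, a comparison that uses the same oxLDL 10 libraries. Of 16 LXR targets 2 fell, Nr1h3 and Lpl, and 0 rose, with a median of 0.09 for the dose step and 0.29 from untreated to oxLDL 10. The cholesterol exporters Abca1 and Abcg1, chosen after their values were seen, had means of 27.6 and 30.1 RPKM and of 72.9 and 87.7 RPKM at the low and high dose (differences of 0.14 and 0.27, adjusted p = 0.86 and 0.542). Nr1h3, which encodes LXRα, was at 20.9, 28.2 and 19.1 RPKM and fell to 12.4, 13.9 and 11.7 RPKM (-0.82, adjusted p = 0.00177). Lipoprotein lipase (Lpl) had means of 302 ± 21.1 and 206 ± 17.7 RPKM (SD, n = 3 each) and was called lower (adjusted p = 0.0224), but not in the fits without oxLDL 10 replicate 1 or 2 or oxLDL 60 replicate 2 or 3, where the adjusted p reached 0.0855. Fatty acid synthase (Fasn) fell from 8.80, 5.77 and 7.57 RPKM to 4.92, 3.82 and 5.18 RPKM (-0.65, adjusted p = 0.00384).

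Scavenger receptors did not move together. Cd36 rose, and 4 of the 14 fell (28.6%, against 3.54% of all genes), with a median of -0.02. Msr1, scavenger receptor A, was at 163, 166 and 162 RPKM at oxLDL 10 and 99.3, 107 and 89.4 RPKM at oxLDL 60 (-0.74 ± 0.09 SE, adjusted p = 4.31e-05), and Cxcl16, a membrane-bound chemokine that binds oxLDL, was at 176, 203 and 164 RPKM and 105, 110.2 and 99.8 RPKM (-0.78, adjusted p = 3.48e-05). The 2 doses did not overlap for either. Olr1, the lectin-like oxLDL receptor, had the largest fall of the list (-1.05, adjusted p = 0.00138) at means of 0.805 and 0.335 RPKM, and with a pseudocount of 1 its call and that of Marco were lost. Cd68 and Stab1, the most abundant members not called, had log2 fold changes of 0.23 and 0.10.

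**Figure D3:**
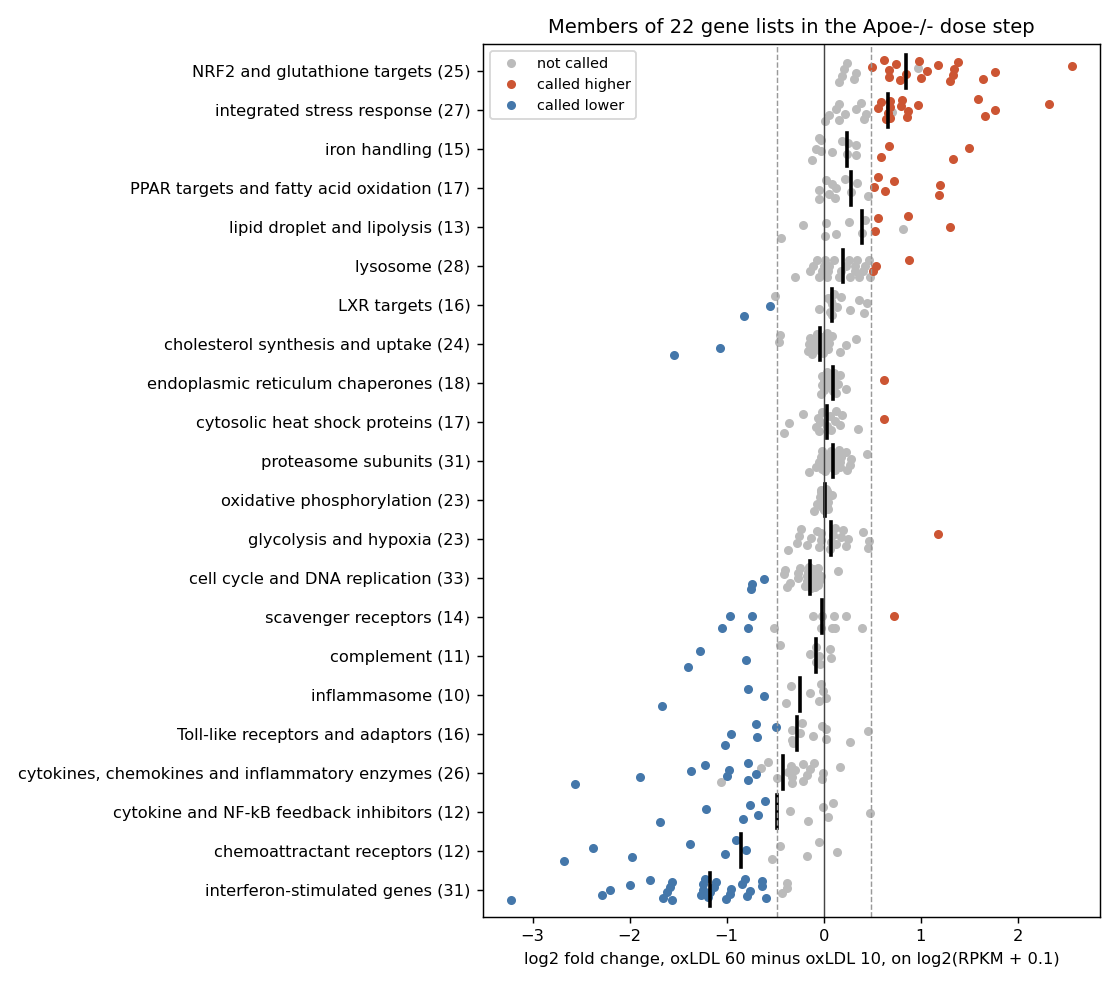
Log2 fold change from oxLDL 10 to oxLDL 60 in Apoe-/- macrophages, on log2(RPKM + 0.1), for each tested member of 22 gene lists, with the number tested in brackets; each point is a gene, coloured by its call, black bars are list medians and dashed lines mark a 1.4-fold change. The interferon-stimulated genes (median -1.17) lie to the left and the NRF2 and glutathione targets (median 0.84) to the right, while oxidative phosphorylation genes stay close to 0.

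Interferon-stimulated genes had the highest share of decreases among the gene lists examined. Of 31 tested, 28 fell and 0 rose, against 3.54% of all genes called lower, all 31 had a negative log2 fold change, and the median was -1.17. The count of 28 was the same in each fit without 1 of the 6 libraries. From untreated cells to oxLDL 10 the median of the list was -0.99, with the oxLDL 10 libraries shared between the comparisons. Cxcl10, the chemokine that recruits activated T cells, had the largest decrease of all genes tested: it was at 70.6, 92.8 and 119.8 RPKM in untreated cells, 19.4, 20.9 and 20.8 RPKM at oxLDL 10 and 2.30, 2.30 and 1.74 RPKM at oxLDL 60. No dose overlapped with another, and the step from 10 to 60 µg/ml was -3.22 ± 0.23 on the log2 scale (SE; adjusted p = 1.85e-07). Ifit1, which binds viral RNA without the host cap, was at 14.4, 16.5 and 15.8 RPKM and fell to 2.38, 3.95 and 3.15 RPKM (-2.29 ± 0.29 SE, adjusted p = 4.1e-05). Its relative Ifit3 fell from 26.8, 28.2 and 29.8 RPKM to 4.66, 7.53 and 6.29 RPKM (-2.21, adjusted p = 5.32e-05), and the mitochondrial nucleotide kinase Cmpk2 from 10.9, 11.8 and 13.1 RPKM to 2.50, 3.25 and 3.01 RPKM (-2.00, adjusted p = 3.32e-06). In these genes the low-dose replicates lay close together and far above the high-dose ones. The transcription factor Irf7, named after its values were seen, fell less, by 0.79 on the log2 scale (adjusted p = 0.000775). The 3 members not called, Bst2, Oas1a and Isg20 (the last named after its values were seen), had log2 fold changes of -0.38, -0.38 and -0.43. Of genes outside the list, the interferon-inducible Ifi205, Ifit3b, Ifit1bl1 and the p47 GTPase Iigp1 were among the 15 leading decreases, at -2.55, -2.47, -2.19 and -2.22, with the limit that close relatives such as Ifit3 and Ifit3b may share reads.

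The interferon-stimulated response element, taken as GAAA, any 2 bases and GAAA on either strand, lay in 50.0% of the promoters of called members in the same RefSeq table (11 of 22 promoters, of 19 genes). It was in 15.1% of the promoters of all genes called lower (66 of 437), 2.4% of those of genes called higher and 3.3% of all promoters. The stretches shown are those of the named members with the largest decreases that hold it, Cxcl10 on the minus strand at chr5:92349063-92349122, Ifit1 on the plus strand at chr19:34640765-34640824 and Ifit3 on the plus strand at chr19:34583353-34583412, all upstream of the start, with the element in capitals:
Cxcl10: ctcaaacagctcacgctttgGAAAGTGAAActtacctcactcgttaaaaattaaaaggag
Ifit1: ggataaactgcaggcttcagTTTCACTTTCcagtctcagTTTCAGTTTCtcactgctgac
Ifit3: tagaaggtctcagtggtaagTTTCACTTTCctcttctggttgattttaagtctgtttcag
The Ifit1 stretch holds 2 copies, and in Ifit1 and Ifit3 the element reads on the opposite strand. The same limits on the promoter table apply.

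Receptors for chemoattractants fell in 7 of 12 cases (58.3%, against 3.54% of all genes) and none rose, with a median of -0.85. Fpr1, the receptor for bacterial formyl peptides, was at 2.74, 3.42 and 2.66 RPKM at oxLDL 10 and 0.377, 0.503 and 0.265 RPKM at oxLDL 60, from 7.11 to 9.75 RPKM in untreated cells. Its step of -2.68 ± 0.33 (SE; adjusted p = 3.05e-05) was close to that of the related Fpr2, which fell from 2.71, 5.92 and 3.64 RPKM to 0.669, 0.616 and 0.722 RPKM (-2.38, adjusted p = 0.000385). Cx3cr1, the fractalkine receptor of patrolling monocytes, was at 108, 120.2 and 100.2 RPKM and fell to 28.5, 30.9 and 24.0 RPKM. The 2 doses of Cx3cr1 were far apart, at -1.98 ± 0.24 (SE; adjusted p = 2.75e-05), although oxLDL 10 lay much nearer to the 147 to 175 RPKM of untreated cells. Ccr2, the receptor for Ccl2, fell from 6.87, 8.42 and 7.53 RPKM to 2.59, 3.32 and 2.73 RPKM (-1.38, adjusted p = 0.000388), and C3ar1, the complement C3a receptor, fell by 0.80 on the log2 scale. Cxcr4 had means of 66.3 ± 21.0 and 63.3 ± 13.9 RPKM (SD, n = 3 each) and overlapping libraries (adjusted p = 0.941).

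Pattern-recognition genes changed by receptor. Of 16 Toll-like receptors and adaptors 5 fell (31.25%, against 3.54% of all genes) and 0 rose, with a median of -0.28. In each of the fits without oxLDL 10 replicate 2 or 3 or oxLDL 60 replicate 1 or 3, 3 fell. Tlr2, the receptor for bacterial lipoproteins, was at 101, 111 and 92.6 RPKM at oxLDL 10 and 51.7, 53.4 and 44.7 RPKM at oxLDL 60 (-1.02 ± 0.09 SE, adjusted p = 1.71e-06). Its co-receptor Cd14 was at 215, 272 and 197 RPKM and then at 114, 130.5 and 106 RPKM (-0.95, adjusted p = 0.000318). Both fell in every replicate without overlap, whereas Tlr4, the lipopolysaccharide receptor named here after its values were seen, had means of 22.0 ± 2.08 and 21.8 ± 2.47 RPKM (SD, n = 3 each; adjusted p = 0.954). In the inflammasome list 3 of 10 fell: Mefv (pyrin) from 3.31, 6.14 and 3.60 RPKM to 0.962, 1.84 and 1.10 RPKM (-1.66, adjusted p = 9.72e-05), the caspase Casp4 (-0.78, adjusted p = 0.000793) and Nlrp3 from 14.2, 14.9 and 13.1 RPKM to 9.48, 9.11 and 8.87 RPKM (-0.61, adjusted p = 2.47e-05). Casp1, their effector caspase, was at 61.4 ± 2.47 and 59.4 ± 2.81 RPKM and was not called (adjusted p = 0.793).

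Among 26 cytokines, chemokines and inflammatory enzymes 9 fell (34.6%, against 3.54% of all genes) and 0 rose. The median was -0.42 for the dose step and -0.99 from untreated to oxLDL 10. The count of 9 was 6 without oxLDL 10 replicate 2 and 4 with a pseudocount of 1, since several members were under 1 RPKM. Saa3, an acute-phase serum amyloid protein, was at 30.1, 71.6 and 49.2 RPKM in untreated cells, 10.2, 17.0 and 7.52 RPKM at oxLDL 10 and 1.70, 1.84 and 1.76 RPKM at oxLDL 60 (dose step -2.56 ± 0.54 SE, adjusted p = 0.00378). The high-dose libraries were nearly equal, and the spread lay in the other 2 groups, where replicate 2 was the highest. Ccl22, a chemokine for regulatory and type 2 T cells, fell from 0.876, 1.73 and 1.13 RPKM to 0.173, 0.269 and 0.323 RPKM (-1.89, adjusted p = 0.00885). Ccl9, a monocyte chemokine outside the list and among the most abundant genes called lower, was at 329, 406 and 312 RPKM and then at 198, 222 and 184 RPKM (-0.79, adjusted p = 0.000139). Ccl2 was not called (-0.33, adjusted p = 0.82): its oxLDL 10 libraries were at 444, 89.2 and 329 RPKM and its oxLDL 60 libraries at 300.5, 113 and 194 RPKM, a spread between replicates larger than the step. Ccl3 was not called either (-0.36, adjusted p = 0.475).

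Feedback inhibitors and immediate early factors fell in part. Of 12 inhibitors of cytokine and NF-κB signalling 6 fell (50%, against 3.54% of all genes) and 0 rose, with a median of -0.48. Socs3, an inhibitor of cytokine receptor signalling, was at 3.38, 3.49 and 2.58 RPKM at oxLDL 10 and 1.23, 0.733 and 0.798 RPKM at oxLDL 60 (-1.69 ± 0.20 SE, adjusted p = 2.14e-05), from 11.9 to 19.0 RPKM untreated. Nfkbiz fell from 4.79, 5.78 and 4.50 RPKM to 2.23, 2.01 and 2.04 RPKM (-1.22, adjusted p = 3.24e-06). Every high-dose library of both genes lay below every low-dose library. The AP-1 subunit Fos fell from 43.7, 40.7 and 39.9 RPKM to 21.9, 17.6 and 16.8 RPKM (-1.15, adjusted p = 2.76e-07) and Junb from 33.6, 42.5 and 34.0 RPKM to 20.1, 20.0 and 20.1 RPKM (-0.86, adjusted p = 0.000691), while Jun was not called (0.17, adjusted p = 0.329). In that list of 13 genes 3 fell and 1, Mafg, a partner of NRF2, rose (0.50), a call lost without oxLDL 10 replicate 2 or 3 or oxLDL 60 replicate 1, where its step fell under the fold limit, to 0.44 at the least.

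Single genes of matrix breakdown, complement and lipid mediator synthesis fell strongly. Of 13 matrix metalloproteinases and inhibitors 1 fell, Mmp14, and 1 rose, Mmp19 (0.49, adjusted p = 0.00738). That is 7.69% each way, against 3.54% lower and 2.91% higher among all genes. With the replicate block 2 fell and 2 rose. The Mmp19 call was lost with a pseudocount of 1 (0.45) and without oxLDL 10 replicate 3 (0.40) or oxLDL 60 replicate 2 (0.42). Mmp14, a membrane-anchored collagenase, was at 31.2, 48.0 and 37.1 RPKM in untreated cells, 13.4, 16.2 and 11.4 RPKM at oxLDL 10 and 2.27, 1.69 and 1.82 RPKM at oxLDL 60. The doses did not overlap, and the step of -2.76 ± 0.21 (SE; adjusted p = 2.76e-07) was the second largest among the leading decreases. Mmp12, macrophage elastase, had higher means at oxLDL 60 (238 ± 38.1 RPKM) than at oxLDL 10 (104 ± 26.2 RPKM; SD, n = 3 each) and libraries that did not overlap, but did not pass the test (1.21 ± 0.51 SE, adjusted p = 0.14). With the replicate number as a block it did, at the same step and an adjusted p of 6.8e-08. Complement C3 fell from 21.2, 26.3 and 18.9 RPKM to 8.43, 9.98 and 8.76 RPKM (-1.27, adjusted p = 0.00051), as 1 of 3 of 11 complement genes called lower, while C1qb (-0.08) and C1qc (-0.05) were not called. Ptges, a prostaglandin E synthase, fell from 6.70, 13.6 and 6.42 RPKM to 1.44, 2.06 and 1.56 RPKM (-2.26, adjusted p = 0.000632), and Ch25h, which makes 25-hydroxycholesterol and is in no list, from 12.4, 6.92 and 10.0 RPKM to 2.61, 2.08 and 1.49 RPKM (-2.19, adjusted p = 2.11e-06). In the lipid mediator list of 12 genes Ptges was the 1 that fell, and Pla2g7, the lipoprotein-associated phospholipase, was the 1 that rose (0.76, adjusted p = 0.00809).

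A few genes of antigen presentation and proliferation fell, and genes of energy metabolism were mostly not called. Of 12 class I genes 3 fell and of 10 class II and co-stimulation genes 2 fell (25% and 20%, against 3.54% of all genes), with medians of -0.19 and -0.30, and with the replicate block 3 and 4 fell. The class I count of 3 held in no fit without 1 library. It was 1 without oxLDL 60 replicate 1 and 2 in each other fit, and the call of H2-Q7 was lost in all 6. Of the class II calls 1 was left without oxLDL 10 replicate 2 or 3 or oxLDL 60 replicate 1 or 3. B2m and H2-D1, the abundant class I genes, moved by -0.14 and 0.07 without a call. Among 33 cell cycle and replication genes 3 fell (9.09%), among them Cdc6, which licenses replication origins, from 5.96, 4.83 and 5.28 RPKM to 3.29, 3.03 and 3.09 RPKM (-0.75, adjusted p = 0.000207), and 32 of the 33 had a negative log2 fold change with a median of -0.15. The count of 3 fell to 1 in the fits without oxLDL 10 replicate 1 or 3 or oxLDL 60 replicate 2 or 3. Ung, the uracil-DNA glycosylase, was the only gene called lower here whose change from untreated to oxLDL 10 was called higher: it was at 4.44, 3.53 and 4.39 RPKM untreated, 5.68, 6.03 and 5.76 RPKM at oxLDL 10 and 2.82, 3.36 and 2.60 RPKM at oxLDL 60. By limma 0 of 23 oxidative phosphorylation genes were called and 0 had an unadjusted p under 0.05 (median 0.01, range -0.10 to 0.09), also 0 called with the replicate block. Of 23 glycolysis and hypoxia genes 1 was called, the peptide hormone gene Adm at means of 0.0382 RPKM, under the floor of 3 reads over 1 kb, and 0.214 RPKM. With a pseudocount of 1 its call was lost, and 4 genes of the list were called without oxLDL 60 replicate 2.

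Leading increases outside the lists were of several kinds. Cdcp1, a transmembrane glycoprotein phosphorylated by Src kinases, had the largest increase of all: 0.290, 0.255 and 0.165 RPKM at oxLDL 10 and 2.16, 1.71 and 2.02 RPKM at oxLDL 60, with 0.156 to 0.310 RPKM in untreated cells. The low dose did not lift it above the untreated range, and the dose step was 2.63 ± 0.20 (SE; adjusted p = 2.76e-07). Layn, the hyaluronan receptor layilin, rose from 2.68, 2.45 and 1.72 RPKM to 9.70, 7.70 and 8.21 RPKM (1.87, adjusted p = 8.95e-05). Procr, the endothelial protein C receptor, was the most abundant of them at 29.6, 18.7 and 21.4 RPKM and 86.8, 64.7 and 64.6 RPKM (1.64, adjusted p = 0.000201). For both, every high-dose library lay above every low-dose one. Serpinb9b, a granzyme inhibitor family member, rose from 0.913, 1.20 and 0.888 RPKM to 3.88, 3.90 and 3.86 RPKM (1.87, adjusted p = 0.000174), and Il1f9, a cytokine of the interleukin family, from 0.258, 0.374 and 0.185 RPKM to 1.60, 1.20 and 0.951 RPKM (1.86, adjusted p = 9.31e-05). Dusp13, a dual-specificity phosphatase, rose from 0.327, 0.299 and 0.281 RPKM to 1.37, 1.14 and 1.56 RPKM (1.85, adjusted p = 2.58e-05). Ednrb, the endothelin B receptor, rose by 1.78 and was highest in replicate 2 at both doses (2.57 and 6.66 RPKM). Of 216 solute carriers tested 13 rose (6.02%) and 6 fell (2.78%), against 2.91% and 3.54% of all genes, led by the glycine transporter Slc6a9 at 0.862, 0.583 and 0.696 RPKM and 3.20, 2.57 and 3.28 RPKM (1.94, adjusted p = 1.49e-06).

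Treml4, the receptor deleted in the DKO animals, was at 1.86, 3.48 and 2.60 RPKM in untreated cells, 3.27, 3.61 and 3.08 RPKM at oxLDL 10 and 8.36, 8.39 and 8.06 RPKM at oxLDL 60. The low dose overlapped with untreated cells and the high dose did not overlap with either, with a dose step of 1.29 ± 0.16 (SE; adjusted p = 2.98e-05). Permuting the 6 libraries exactly gave a two-sided p of 0.10, the smallest that 3 against 3 can give. Treml4 was the 1 gene called of 8 in the Trem list (2 without oxLDL 60 replicate 2). Trem2, a lipid-sensing receptor of foam cells, had means of 421 ± 44.6 and 531 ± 21.0 RPKM (SD, n = 3 each) and passed the adjusted p (0.0167) but not the fold limit (0.34), and the shared adaptor Tyrobp moved by 0.01.

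The same dose step in DKO macrophages, in libraries that the Apoe-/- comparison does not use, had the same direction for most genes. There, 246 genes (1.92% of those tested) were called higher and 480 (3.74%) lower. The median over all genes was -0.08 in DKO, and rescaling libraries by the median ratio over genes, which removed this shift, changed the DKO split to 361 higher and 360 lower and the Apoe-/- split to 393 and 457. In all, 585 genes were called in the same direction in both genotypes, 70.6% of the Apoe-/- calls and 80.6% of the DKO calls. By direction, 216 shared genes made up 57.8% of the Apoe-/- and 87.8% of the DKO increases, and 369 made up 81.1% and 76.9% of the decreases. Of the 829 Apoe-/- calls 811 had the same sign in DKO. Of the 243 not called there, 226 had the same sign and 86 passed the adjusted p with it. Genes called higher in Apoe-/- had a median step of 0.72 there and 0.56 in DKO, and genes called lower -0.79 and -0.74; the first value of each pair comes from the contrast that chose the genes. Across the 12838 genes, which are not independent replicates, Pearson's r between the steps was 0.771 and Spearman's rho 0.72.

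**Figure D4:**
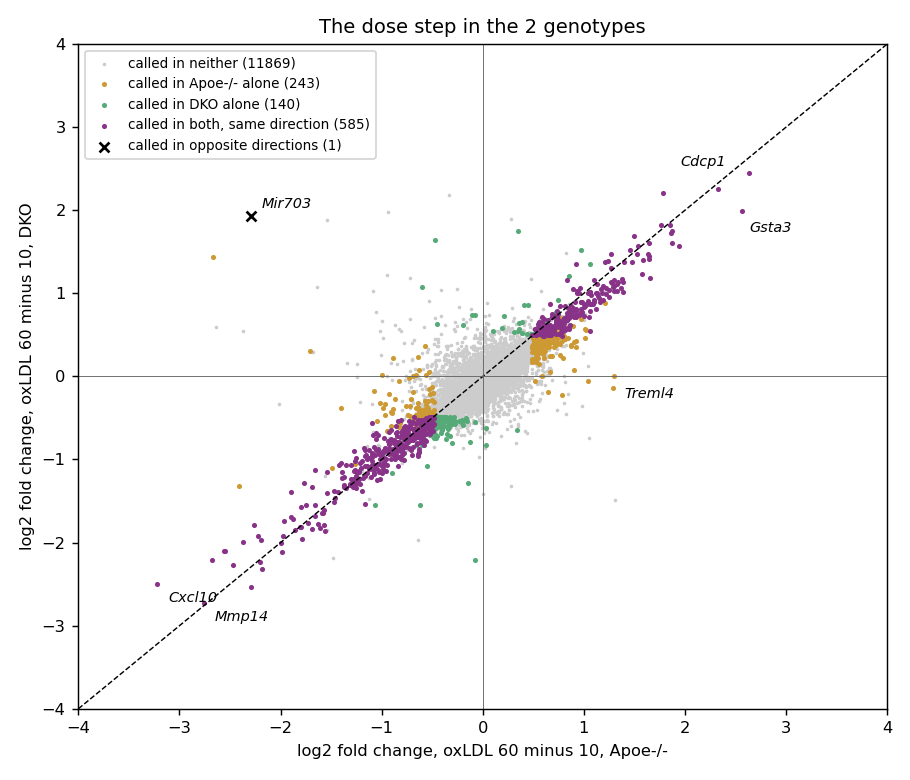
Log2 fold change from oxLDL 10 to oxLDL 60 in DKO (vertical) against Apoe-/- (horizontal) macrophages for 12838 genes; each point is a gene, coloured by the genotypes in which it was called, and the dashed line marks equal change. The 585 genes called in both lie along the line, Treml4 lies at 1.29 in Apoe-/- and 0 in DKO, where the gene is deleted, and Mir703 is the 1 gene called in opposite directions.

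By count in DKO, NRF2 and glutathione targets rose in 17 of 25, with a median of 0.77, and interferon-stimulated genes fell in 30 of 31, with a median of -1.16. Integrated stress response genes were called in 8 of 27 cases in DKO, with a median of 0.48, against 16 and 0.66 in Apoe-/-. With the replicate block the counts were 13 and 17, and 16 and 20 members had an unadjusted p under 0.05, all with a positive step. The difference was tested gene by gene in the same model. No gene was called for a difference of the dose step between genotypes by limma (0 of 12838, 0%), 330 had an unadjusted p under 0.05, and the smallest adjusted p was 0.333, that of Treml4. With the replicate block 758 had an unadjusted p under 0.05 and 1 gene, Mir703, was called. Ddit3, an effector of the stress response named after its values were seen, was called in Apoe-/- alone, and there not without oxLDL 10 replicate 3 or oxLDL 60 replicate 1 (highest adjusted p = 0.071): its step was 0.86 ± 0.23 (SE) in Apoe-/- and 0.59 ± 0.23 in DKO, with means of 15.6 and 28.4 RPKM in Apoe-/- and 25.2 and 37.5 RPKM in DKO, and a difference of -0.27 ± 0.32 that did not pass the test. For Cxcl10 the difference was 0.73 ± 0.33 (steps of -3.22 and -2.49), which did not pass the test either.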

How the data were processed

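Total RNA from 18 BMDM cultures, 6 groups of 3 biological replicates, was made into libraries and sequenced by the authors. The study's methods describe stranded libraries with poly(A) selection. The labels list more than 1 sequencing platform and do not say which library was run on which, so a batch by platform could not be examined. The deposited table holds RPKM values, 1 column per library, that the authors made from STAR alignments to mm10 per the labels; the annotation and the program versions are not given in the sources used here. The treatment text of the labels also describes lipopolysaccharide, and the study's methods give a longer exposure; doses and the 16 h follow titles and the design text. The members and gene lists were chosen with earlier results of these data known.

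Genes with 0.1 RPKM or more in at least 3 libraries were fitted on log2(RPKM + 0.1) by limma 3.58.1 in R 4.3.3, as 6 group means over all 18 libraries with eBayes and a trend, Benjamini-Hochberg adjusted over all 12838 genes; fold changes on this scale understate those of low genes. Genes named are the 15 called with the largest fold per direction (mean of at least 1 RPKM, libraries not overlapping), the 5 most abundant called, up to 4 called and 2 abundant uncalled per list, and Treml4, Apoe, Cd36, Xist and Ddx3y; others, among them those of the closing observations, were chosen after their values were seen and are marked so. Same-numbered libraries of the 2 doses tended to deviate together (r = 0.262 to 0.687 in Apoe-/-, 0.199 to 0.588 in DKO, 3 pairs each). Libraries with different numbers gave -0.603 to 0.259 and -0.41 to 0.256. The pairing was clear for Apoe-/- replicates 1 and 2 (0.588 and 0.687) and DKO replicate 3 (0.588). It was not clear for Apoe-/- replicate 3 (0.262) or DKO replicates 1 and 2 (0.199 and 0.258). The replicate number, taken from the titles, was treated as pairing samples in an alternative fit. Depth was read from the RPKM value of 1 read in genes with 1 GENCODE M21 transcript; 48.1 to 52.2% of low values were within 0.03 of whole reads, so read counts were not recovered. No library pair was identical (r = 0.9711 to 0.9959). All 18 columns matched a sample. The table had 24 symbols altered into dates, 1 of them among the calls. The fits were tested on simulated data. Values of some single genes are not reported here. Promoters, with 50 genes matched by an older symbol, came from RefSeq.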

Additional observations from a re-analysis of the deposited data

Results flagged for a closer look

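Mir703, a microRNA locus, was flagged because its dose step went in opposite directions in the genotypes, down in every Apoe-/- replicate pair and up in every DKO pair. Its mean level was 0.632 RPKM at oxLDL 10 and 0.0678 RPKM at oxLDL 60 in Apoe-/-, and 0.14 and 0.799 RPKM in DKO, with 2 of the 3 Apoe-/- oxLDL 60 libraries at 0. The steps were -2.29 and 1.93 on the log2 scale, a difference (DKO minus Apoe-/-) of 4.23 ± 0.88 (SE). By limma the difference had an adjusted p of 0.999 without and 0.000335 with the replicate block. Its Apoe-/- call was lost in the fits without oxLDL 10 replicate 2 or 3 or oxLDL 60 replicate 1 or 3 (highest adjusted p = 0.0851). Among 201 named genes it was the 1 with a call and opposite signs in all pairs. Genes called in opposite directions were added to the named genes by rule, so that count does not measure how rare the pattern is. Over all genes tested 369 (2.87%) had opposite signs in all pairs. The part of counting error in short transcripts at such levels was not tested.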

How the results depend on the processing

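The Apoe-/- counts of 374 higher and 455 lower stayed within 1.5 times under every alternative but the removal of the fold limit, which gave 792 and 939 (in DKO 474 higher and 1526 lower). A pseudocount of 1 gave 264 and 315. Leaving out each library in turn gave 304 to 406 higher and 403 to 435 lower in Apoe-/- and 174 to 305 higher and 415 to 479 lower in DKO. Without the Xist-positive animals 842 Apoe-/- genes were called, 718 of them among the 829. In DKO, median-ratio rescaling changed the share of calls that were higher from 33.9% to 50.1%. The replicate block raised the counts to 468 and 547 and changed the call of no named gene but Mmp12, which it called. The count of genes that differed between genotypes was 0 and became 1 with a pseudocount of 1 and in the fit of the 4 oxLDL groups alone (Treml4 both times), 1 with the block (Mir703) and 2 without the Xist-positive animals (Mir703 and Hspa1b), and stayed 0 in the 12 fits without 1 library. The exact p for Treml4 was 0.10 at each pseudocount. No called gene named here changed direction. Depth limits the genes under 1 RPKM in both groups, 51 of the higher and 73 of the lower calls.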

Other observations

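Gene families with interferon-inducible members, grouped by symbol after the values were seen, are given without a test. They are not independent of the results above. Gbp2, Gbp3, Ifi204 and Ifi44 were counted in the interferon list, and Ifi205 and Iigp1 were among the leading decreases. Among all genes tested 3.54% were called lower and 2.91% higher. Of 8 guanylate-binding proteins tested 7 were called lower (median -1.23 on the log2 scale), of 6 p47 GTPases 6 (-0.98), of 16 p200 and other Ifi genes 11 (-1.15), of 8 Schlafen genes 5 (-0.96), of 12 poly(ADP-ribose) polymerases 4 (-0.26) and of 42 TRIM genes 8, with 2 higher (-0.06). The most abundant of these was Slfn2, at means of 191 and 122 RPKM at the low and high dose, and Tgtp2 went from 5.82 to 1.60 RPKM. Of 18 C-type lectins 6 were called lower and 2 higher (median -0.16). Clec4e, which senses mycobacterial glycolipid, was 1 of the 6 and fell from a mean of 142 to 58.7 RPKM (-1.28). The 2 that rose were Clec4n and Clec10a, by 0.86 and 0.69. In the NADPH oxidase the catalytic subunit Cybb fell from 159 to 76.9 RPKM (-1.04).

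Of 16 cytosolic aminoacyl-tRNA synthetases 4 rose, against 2.91% of all genes. They were Cars, Sars, Aars and Nars, with steps of 0.51 to 0.64. Only the call of Cars held in every fit without 1 library. Sars, Aars and Nars were not called without oxLDL 10 replicate 2 or oxLDL 60 replicate 1, and Aars also not without replicate 3 of either dose. By limma 0 of the 16 were called in DKO, with 4 higher and 5 lower at an unadjusted p under 0.05 (9 higher and 0 lower in Apoe-/-), and the 4 had steps of 0.35 to 0.45 there, with no difference between genotypes called. Replication-dependent histone genes had 6 of 67 called lower in Apoe-/-, beside 3.54% of all genes, with a median of -0.30. With the replicate block 13 were called, and by limma 46 had an unadjusted p under 0.05. In DKO 0 were called (9 at an unadjusted p under 0.05), with a median of -0.06. Small nucleolar RNAs had 3 of 58 called lower in Apoe-/-, beside 3.54% of all genes, and a median of -0.75. By limma 11 had an unadjusted p under 0.05 there and 5 were called with the replicate block. In DKO 0 were called (6 at an unadjusted p under 0.05, 3 called with the replicate block), with a median of 0.16. Called members were low: Apoe-/- means went from 0.489 to 0 RPKM for Snord55 and from 1.87 to 0.45 RPKM for Snord33. The part of counting error in these short transcripts was not tested. The difference between genotypes was not tested for the histone genes or the small nucleolar RNAs as a whole. The study's methods describe poly(A) selection of the libraries, and its effect on the levels of these 2 kinds of transcript was not tested. Snord16a, the 1 small nucleolar RNA among the leading decreases, was at 1.23, 1.76 and 1.03 RPKM and then at 0.203, 0 and 0.257 RPKM, and its call was lost in 5 of the 6 fits without 1 library (highest adjusted p = 0.143). By limma 0 of 80 ribosomal protein genes were called, with 0 at an unadjusted p under 0.05 and 0 called with the block.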
